A study of Rattus norvegicus with 6 samples.

Results

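Genes of the cell division cycle were followed in newborn rat ovaries kept in organ culture with or without connective tissue growth factor (CTGF). A list of 40 genes was used, with 17 of the G1 to S transition and DNA replication, 17 of G2 and mitosis, and 6 that restrain the cycle. A gene entered when a probe set of the array carried its symbol as the only one, and the probe set with the highest mean of the 6 arrays stood for it. This gave 35 of the 40 genes (14, 15 and 6), out of 14324 genes with such a symbol. Ccnd3, Mcm3, Mcm4, Mki67 and Birc5 had no probe set named for them and were not analysed here.

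The ovaries came from female Sprague-Dawley pups of postnatal day 0 and were cultured for 24 h. Each of the 6 samples was a pool of 2 to 3 ovaries from one well, taken from different pups of 1 litter. The 3 control samples had no treatment, and the 3 CTGF samples had human CTGF at 500 ng/ml. Each control shared its organ culture date, here called batch 1, 2 or 3, with 1 CTGF sample, and no genotype differed between the groups. All values are log2 signals, and a difference of 0.2 corresponds to a ratio of 1.149. The mean of a control array and its paired CTGF array was the same in the 3 batches, to within 0.005 in every probe set, so differences between culture dates were absent from the deposited values. A low CTGF array therefore always comes with a high control array of the same batch, and the measurement is the difference within each of the 3 pairs. The array medians lay between 5.82 and 5.84. A background level of 5.60 was set at the 95th percentile of 45 genes of other organs, such as those of the retina, pancreas and pituitary. Of the 35 genes, 33 lay above it, and Aurkb (mean near 5.6) and Cdkn2a (mean of 3.78 in control ovaries) did not.

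Cells enter the cycle when D-type cyclins with Cdk4 and Cdk6, and then cyclin E with Cdk2, inactivate the retinoblastoma protein and free E2F factors. These switch on the genes that license and copy DNA, among them Cdc6, the Mcm helicase and Pcna. Later the cyclin A and B partners of Cdk1 drive mitosis together with the Polo and Aurora kinases, and the checkpoint proteins of the Bub and Mad families hold the anaphase complex until chromosomes are attached. Cdk inhibitors of the Cip/Kip and Ink4 families stop the cycle. In the newborn ovary most oocytes have left mitosis and are arrested in meiotic prophase, while pregranulosa, stromal and endothelial cells may still divide.

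Promoters of 4 of the genes are shown, a pair from the G1/S class and a pair from the mitotic class, because together they hold every motif that was searched and their genes are described by batch in the results. RefSeq (GRCr8 assembly) gave a promoter for 30 of the 40 genes, as a window of 250 bases before and 50 after the start. Capitals mark the E2F-like motif TTTNNCGC, the cell cycle homology region TTTGAA, called CHR, and the CCAAT box, each on either strand, so that ATTGG is a CCAAT box read from the other strand. The sequences are the 250 bases before each start, on the strand of the gene. Mcm2 lies at chr4:122918095-122918344 (minus strand), Mcm5 at chr19:13488563-13488812 (plus strand), Cdk1 at chr20:19265043-19265292 (plus strand) and Ccnb2 at chr8:79981659-79981908 (minus strand).
Mcm2: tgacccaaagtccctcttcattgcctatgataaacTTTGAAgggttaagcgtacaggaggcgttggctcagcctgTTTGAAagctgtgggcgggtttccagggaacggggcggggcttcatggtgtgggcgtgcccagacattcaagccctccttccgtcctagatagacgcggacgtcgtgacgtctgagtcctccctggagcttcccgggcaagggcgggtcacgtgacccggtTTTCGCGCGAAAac
Mcm5: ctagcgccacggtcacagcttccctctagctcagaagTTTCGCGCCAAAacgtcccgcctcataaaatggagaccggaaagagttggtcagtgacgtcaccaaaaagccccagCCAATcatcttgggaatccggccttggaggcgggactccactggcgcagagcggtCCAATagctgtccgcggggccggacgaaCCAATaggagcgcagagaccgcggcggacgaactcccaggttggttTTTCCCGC
Cdk1: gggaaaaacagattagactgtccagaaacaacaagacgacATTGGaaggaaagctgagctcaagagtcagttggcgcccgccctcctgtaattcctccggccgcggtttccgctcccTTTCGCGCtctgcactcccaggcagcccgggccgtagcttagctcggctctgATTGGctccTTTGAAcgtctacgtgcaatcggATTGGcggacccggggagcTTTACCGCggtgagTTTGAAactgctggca
Ccnb2: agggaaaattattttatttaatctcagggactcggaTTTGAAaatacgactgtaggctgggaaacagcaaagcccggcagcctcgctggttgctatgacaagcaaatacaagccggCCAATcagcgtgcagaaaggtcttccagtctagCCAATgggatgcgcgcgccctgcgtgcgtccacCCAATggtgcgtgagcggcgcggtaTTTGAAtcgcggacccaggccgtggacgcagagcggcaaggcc

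In Mcm2 a pair of E2F-like matches, one on each strand, overlap just before the start and begin 14 and 10 bases before it, and CHR matches begin 215 and 175 bases before it. In Mcm5 such a pair begins 213 and 209 bases before the start, a single match begins 8 bases before it, and CCAAT boxes begin at 137, 82 and 54. Ccnb2 has CCAAT boxes beginning 134, 101 and 68 bases and CHR matches beginning 214 and 43 bases before the start, and no E2F-like match. Cdk1 has all 3 motifs. The E2F-like motif was in 5 of the 10 G1/S promoters, 2 of the 15 mitotic ones and 5.19% of all 27457 promoters of the same length. The CHR was in 1 of the 10, 9 of the 15 and 18.1%, and the CCAAT box in 7 of the 10, 11 of the 15 and 37.7%. Among 5 promoters of the restraining genes, 1 (Rb1) had the E2F-like motif, 0 the CHR and 1 (Cdkn1b) the CCAAT box. A match of letters is a description and does not show that a factor binds there.

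The effect of 24 h of CTGF on the cell cycle genes was compared in limma with the batch as a block. None of the 35 genes passed (adjusted p = 0.994, or 1 for Bub1), and in limma 0.0% of the 27342 probe sets did. At an unadjusted p under 0.05 limma called 1 of the 35, Cdkn1c, against 3.35% of all probe sets, and the 2-way test of the methods, also with 0 probe sets after adjustment, called the same gene alone. The mean difference was above 0 for 11 of the 35 genes, below for 23 and 0 for Bub1, with a median of -0.03 beside -0.003 for all probe sets. Ccne1, Mcm7, Aurka and Cdkn1c were lower with CTGF in all 3 batches, as 10.9% of all probe sets were, and Cdk6 and Rb1 higher in all 3, as 9.41% were. Because the pair means are equal, these 6 genes are also those whose control and CTGF arrays did not overlap (20.3% of all probe sets), which is the same observation. The 4 lower and 2 higher genes are 11.4% and 5.71% of the 35, near or below the shares of the whole array.

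The differences of the 35 genes varied from pair to pair. The SD of the 3 paired differences had a median of 0.225 over the 35 genes, 0.25 over the G1/S genes and 0.203 over the mitotic ones, beside 0.121 over all probe sets and 0.120 over those above background. The same median was 0.111 for the 6 restraining genes, 0.293 for markers of stroma and 0.288 for those of oocytes. Over further pathway genes that are not among the 40, described below, it was nearer to that of all probe sets. It was 0.14 over 44 S phase and replication genes, 0.147 over 45 of G2/M and spindle and 0.166 over 19 of brakes and quiescence. In batch 3, 28 of the 35 genes were lower in the CTGF pool than in its control, against 47.4% of all probe sets. In batch 1, 24 of the 35 were higher with CTGF (48.1% of all probe sets), and in batch 2, 22 of the 35 (45.8%). Higher in batch 1 and lower in batch 3 were 20 of the 35, against 24.7% of all probe sets and 4209 of the 14481 above background. A batch 3 difference of -0.2 or lower, a ratio of at most 0.871, was found for 18 of the 35 genes, against 11.1% of all probe sets, and for 17 of the 33 above background, against 13.6% of the probe sets above it. The genes were chosen with earlier results of these data known, and the value of 0.2 after the differences were seen, so these counts are descriptions. Each batch holds 1 pair of pools, so a difference within a batch has no replicate and no test.

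**Figure D1:**
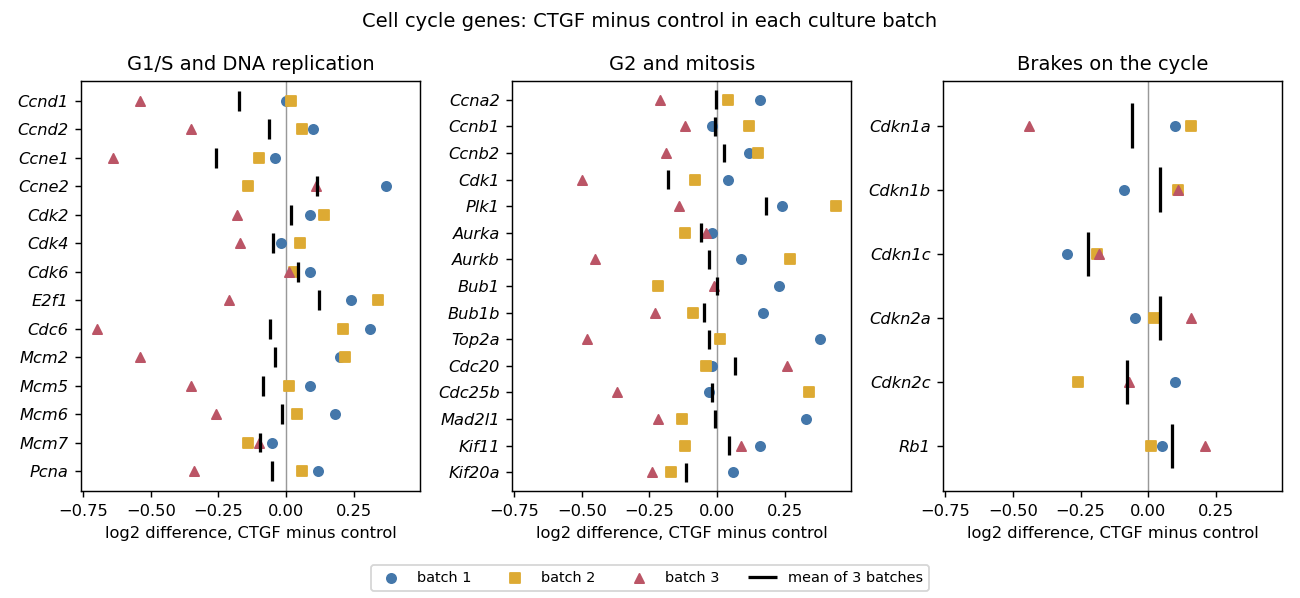
Log2 difference between the CTGF and control array (horizontal axis) for each of the 35 cell cycle genes (vertical axis), in batch 1 (circles), batch 2 (squares) and batch 3 (triangles), with the mean of the 3 batches (black bar). The batch 3 triangles of 25 of the 29 G1/S and mitotic genes lie left of 0, against 47.4% of all probe sets. Cdkn1c is the gene with all 3 points at -0.18 or lower.

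Among the G1/S genes the D-type cyclins, which carry growth signals to the cycle, differed by 0.10 or less between the pools in batches 1 and 2, and by more in batch 3. Ccnd1 (cyclin D1) had log2 signals of 6.70, 6.69 and 6.97 in the control pools of batches 1, 2 and 3 and of 6.70, 6.71 and 6.43 in the CTGF pools. Its paired differences were thus 0.00, 0.02 and -0.54, with a mean of -0.17 (standard error, SE, 0.12). Ccnd2 (cyclin D2), the D cyclin of granulosa cells, had differences of 0.10, 0.06 and -0.35. Their kinase partners stood closer to 0, with -0.02, 0.05 and -0.17 for Cdk4 and 0.09, 0.03 and 0.01 for Cdk6. The 2 D cyclins and Cdk4 overlapped between the groups, and Cdk6 was higher with CTGF in each pair, by less than its SE of 0.06 in 2 of the 3.

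The 2 E cyclins, which activate Cdk2 at the start of S phase, did not run together. Ccne1 had control signals of 5.95, 5.98 and 6.25 and CTGF signals of 5.91, 5.88 and 5.61. The last of these lay close to the background of 5.60. All 3 pairs were lower with CTGF, but the size came from batch 3, with differences of -0.04, -0.10 and -0.64. Its log2 fold change of -0.26 (SE 0.12) was the largest in size of the 35, and without batch 3 it was -0.07. Ccne2 had control signals of 7.82, 8.07 and 7.95 and CTGF signals of 8.19, 7.93 and 8.06, with a log2 fold change of 0.11 (SE 0.10). It was one of only 2 G1/S genes that were higher with CTGF in batch 3, the other being Cdk6. Cdk2 itself had differences of 0.09, 0.14 and -0.18.

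E2f1, the factor that turns on S phase genes, and the licensing genes Cdc6 and Mcm2 ran one way in batches 1 and 2 and the other way in batch 3. The SD of the 3 differences was 0.557 for Cdc6 and 0.433 for Mcm2, the widest of the 35 genes, and 0.293 for E2f1. E2f1 had control signals of 5.52, 5.47 and 5.74 and CTGF signals of 5.76, 5.81 and 5.53. These signals lay on both sides of the background of 5.60. Cdc6, which loads the Mcm helicase onto origins, had control signals of 6.36, 6.41 and 6.86 and CTGF signals of 6.67, 6.62 and 6.16. In batch 3 its CTGF pool was at 0.616 of the control pool, the lowest ratio of the 35 genes, and in batches 1 and 2 the differences were 0.31 and 0.21. Mcm2, whose promoter is printed above, had control signals of 8.04, 8.03 and 8.41 and CTGF signals of 8.24, 8.25 and 7.87. These 3 genes were higher with CTGF in batches 1 and 2 and lower in batch 3, and their log2 fold changes over the 3 batches were 0.12 (SE 0.11), -0.06 (SE 0.19) and -0.04 (SE 0.15).

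The helicase subunits differed among themselves although they form 1 ring. Mcm5 had differences of 0.09, 0.01 and -0.35 and Mcm6 of 0.18, 0.04 and -0.26. Like Mcm2 they were lower with CTGF in batch 3 alone, but their differences were smaller in each batch. Mcm7, by contrast, had control signals of 8.70, 8.74 and 8.72 and CTGF signals of 8.65, 8.60 and 8.62, lower in each pair by 0.05 to 0.14. Its log2 fold change was -0.10 (SE 0.06), and the SD of its 3 differences was 0.045, against 0.433 for Mcm2. Pcna, the clamp that holds DNA polymerase, had 0.12, 0.06 and -0.34. Over the 14 G1/S genes the median difference was 0.095, 0.045 and -0.30 in the 3 batches, and 0 of them had an unadjusted p under 0.05 in limma.

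**Figure D2:**
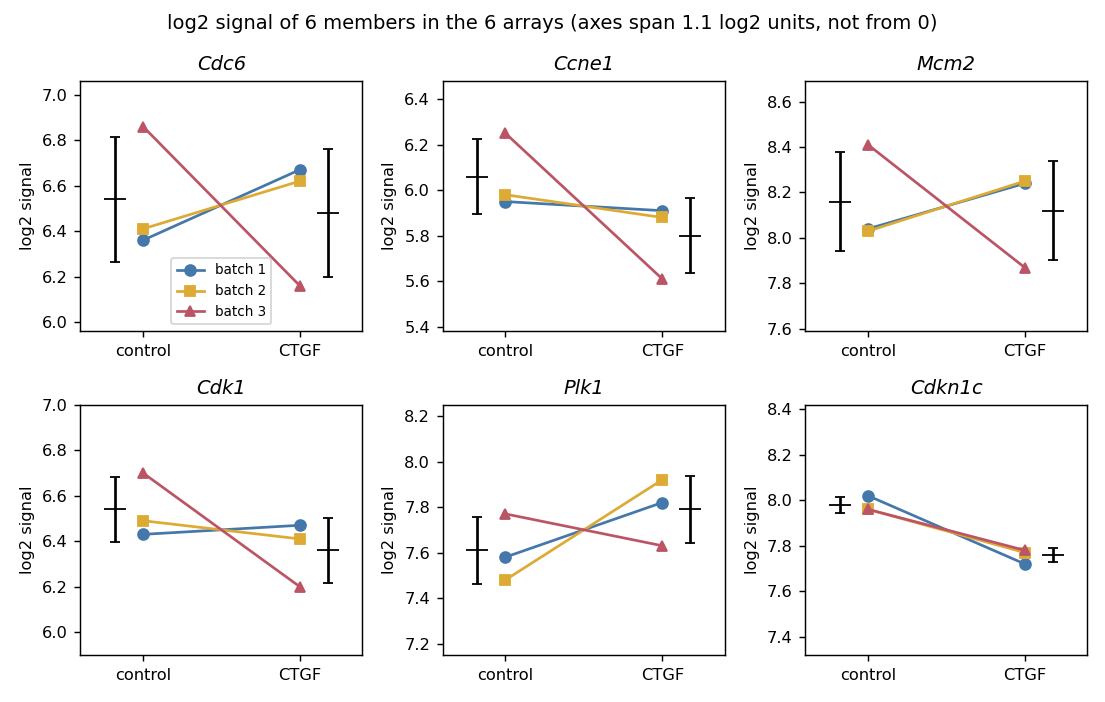
Log2 signal (vertical axis, 1.1 log2 units in each panel and not from 0) of 6 genes in the control and CTGF arrays, with lines joining the arrays of a batch and black marks for the mean ± SD of 3 arrays. The line of batch 3 runs against those of batches 1 and 2 for Cdc6, Mcm2 and Plk1, and the 3 lines of Cdkn1c run alike.

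Among the kinase and cyclins at the centre of mitosis the kinase had the larger mean difference. Cdk1, the mitotic kinase, had control signals of 6.43, 6.49 and 6.70 and CTGF signals of 6.47, 6.41 and 6.20, a log2 fold change of -0.18 (SE 0.11). As for Ccne1 this came from batch 3, where the CTGF pool was at 0.707 of its control, and the groups overlapped. Its cyclin partners followed it less, with 0.16, 0.04 and -0.21 for Ccna2, -0.02, 0.12 and -0.12 for Ccnb1 and 0.12, 0.15 and -0.19 for Ccnb2. A second probe set with the symbol Ccnb2 had 0.15, 0.14 and -0.18. Because rat Ccnb2 has pseudogenes in RefSeq, the transcript that each of the pair reads is uncertain. Cdc25b, a phosphatase that activates Cdk1, had -0.03, 0.34 and -0.37.

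Plk1, the Polo kinase of mitotic entry and spindle formation, had control signals of 7.58, 7.48 and 7.77 and CTGF signals of 7.82, 7.92 and 7.63. Its log2 fold change of 0.18 (SE 0.11) was the highest of the 35, with 0.24 and 0.44 in batches 1 and 2 and -0.14 in batch 3. It rested on batch 2, since it was 0.05 without that batch, where Ccne2 stood at 0.24. The 2 Aurora kinases diverged in spread. Aurka, which works at spindle poles, was lower with CTGF by 0.02, 0.12 and 0.04, while Aurkb, of the chromosomal passenger complex, had 0.09, 0.27 and -0.45 at signals around background.

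Top2a, the topoisomerase that untangles sister chromatids, had control signals of 8.59, 8.78 and 9.02 and CTGF signals of 8.97, 8.79 and 8.54. Its differences of 0.38, 0.01 and -0.48 almost cancelled, to a log2 fold change of -0.03 (SE 0.15). The spindle checkpoint genes were higher with CTGF in batch 1 and lower in batch 2, with 0.23, -0.22 and -0.01 for Bub1, 0.17, -0.09 and -0.23 for Bub1b and 0.33, -0.13 and -0.22 for Mad2l1. The spindle motor Kif11 had 0.16, -0.12 and 0.09, and Kif20a, a motor of cytokinesis, 0.06, -0.17 and -0.24. Cdc20, which activates the anaphase complex, went the other way in batch 3, with -0.02, -0.04 and 0.26.

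Over the 15 mitotic genes the median difference was 0.12, -0.04 and -0.21 in the 3 batches, and 0 of the 15 had an unadjusted p under 0.05 in limma. Set side by side, the G1/S median minus the mitotic median was -0.025, 0.085 and -0.09, so both classes had the same order of batch 1 above batch 3 and lay within 0.09 of each other in each batch. With the G1/S class limited to the cyclin E, E2F, Cdc6, Mcm and Pcna genes, and Ccna2 and Cdc25b left out of the mitotic class, the batch 3 medians were -0.34 and -0.19. No test was made of medians over genes.

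The 6 genes that restrain the cycle went both ways in batch 3, with 3 lower and 3 higher with CTGF. Their medians were 0.00, 0.015 and 0.02 in the 3 batches, and 0.05, 0.01 and -0.07 for the 5 above background. Cdkn1c, which encodes the Cdk inhibitor p57 and is imprinted, had control signals of 8.02, 7.96 and 7.96 and CTGF signals of 7.72, 7.77 and 7.78. All 3 CTGF arrays lay below all 3 control arrays. The paired differences were -0.30, -0.19 and -0.18, and the log2 fold change of -0.22 (SE 0.07) is a ratio of 0.857. The unadjusted p in limma was 0.0139 and the adjusted p = 0.994. With each replicate left out in turn the difference stayed between -0.245 and -0.185, and the largest unadjusted p, 0.0583, was reached without replicate 1. The adjusted p over the 10 alternatives ranged from 0.0779, in the fit with no batch term, to 1.

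Cdkn1a, which encodes p21 and is induced by p53, had 0.10, 0.16 and -0.44. It was lower with CTGF in batch 3 alone, like Mcm2 and unlike Cdkn1c. Cdkn1b, which encodes p27, had -0.09, 0.11 and 0.11, and Cdkn2c, an Ink4 inhibitor of Cdk4 and Cdk6, 0.10, -0.26 and -0.07. Rb1, the retinoblastoma gene, had control signals of 8.06, 8.08 and 7.98 and CTGF signals of 8.11, 8.09 and 8.19. It was higher with CTGF in each pair, at a log2 fold change of 0.09 (SE 0.07). Cdkn2a, which encodes p16 and p19Arf, was below background in all 6 arrays, so its differences of -0.05, 0.02 and 0.16 carry no direction.

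Further genes of the pathway, taken from lists that do not hold the 40, were read in the same way. Of 49 S phase and replication genes 44 were measured, with medians of 0.08, 0.035 and -0.09 in the 3 batches, and of 63 G2/M and spindle genes 45, with 0.14, 0.01 and -0.04. In batch 3, 12 of the 44 and 8 of the 45 had differences of -0.2 or lower, against 11.1% of all probe sets and 13.6% of those above background. Of 27 genes of brakes and quiescence 19 were measured, with 0.04, 0.10 and 0.09. At an unadjusted p under 0.05 limma called 1, 1 and 0 of these genes, against 3.35% of all probe sets, and 0 passed when adjusted. Gins3, a subunit of the replicative helicase, had -0.33, -0.34 and -0.11, a log2 fold change of -0.26 (SE 0.08). Incenp, the scaffold of the passenger complex that holds Aurkb, had 0.28, 0.09 and 0.17, a log2 fold change of 0.18 (SE 0.07).
Foxm1, the transcription factor of G2/M genes, had a log2 fold change of 0.16 (SE 0.07) and the spindle motor Kifc1 one of 0.13 (SE 0.06). Both were higher in all 3 batches, as was the phosphatase Cdc25a, with 0.34, 0.06 and 0.11. Of the S phase list 3 of the 44 genes were higher in all 3, and of the G2/M list 6 of the 45, against 9.41% of all probe sets. Hells, a chromatin remodeler, had 0.48, -0.08 and 0.06. In the list of brakes and quiescence Cdkn2b had -0.03, 0.21 and 0.23 and Foxo1 -0.08, 0.24 and 0.20. Mdm2, which is on this list but is not itself a brake, had 0.26, -0.07 and 0.13.

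Markers of the ovary's cell types were set beside the cell cycle genes, since each array measured a whole pool. In such bulk samples fewer cells of a type and less RNA per cell cannot be told apart. Stroma markers, collagens and PDGF receptors among them, had the batch order of the G1/S genes, with medians of 0.135, 0.035 and -0.415. In batch 3, 13 of 14 were lower with CTGF, against 47.4% of all probe sets, and 11 of the 14 lay above background. The summed signal of the stroma markers was at 0.718 of the control pool in batch 3, against 1.098 and 1.088 in batches 1 and 2. The summed signal of these markers ranged from 6503.5 to 8064.2 in control pools and from 5788.0 to 7140.0 in CTGF pools. Endothelium markers had medians of 0.055, 0.08 and -0.405 and a summed signal at 0.814 of control in batch 3, with 3 of 10 above background. Of the 10, 7 were lower with CTGF in that batch, against 47.4% of all probe sets. The 3 above background were Emcn at -0.64, Esam at -0.61 and Tek at 0.08. Pecam1, Kdr, Eng, Acta2 and Ptch1 had no probe set named for them.
Oocyte markers went the other way in batch 3, with medians of 0.145, -0.205 and 0.27 and a summed signal at 1.191 of control. In that batch 14 of 16 were higher with CTGF, against 13584 of all 27342 probe sets. The list held 24 genes, and Figla and Nobox were among those with no named probe set. All 16 measured lay above background. In batch 3 Sycp1 and Sycp3 were at 0.48 each, Ddx4 at 0.23 and Dazl at 0.19. Gdf9, Zp3 and Nlrp5 were at 0.06, 0.05 and 0.04, and Zp1 and Dppa3 at -0.43 and -0.33. The summed signal of the oocyte markers ranged from 11156.6 to 12914.1 in control pools and from 11491.2 to 13291.9 in CTGF pools. Pregranulosa markers, of which Foxl2 was not named, had medians of -0.08, 0.065 and -0.03, with a summed signal at 1.034 of control in batch 3.
The medians were -0.045, -0.085 and -0.095 for leukocyte and -0.005, 0.135 and -0.15 for surface epithelium markers. Erythroid markers had 0.04, -0.08 and 0.025, with 1 of 8 above background, Hbb, at 0.27, -0.35 and 0.07. Genes of stress and hypoxia had 0.11, -0.02 and -0.09, with 10 of 17 above background. Their summed signal was at 0.858 of control in batch 3. The part of cell composition in the batch values of the cell cycle genes was not tested.

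**Figure D3:**
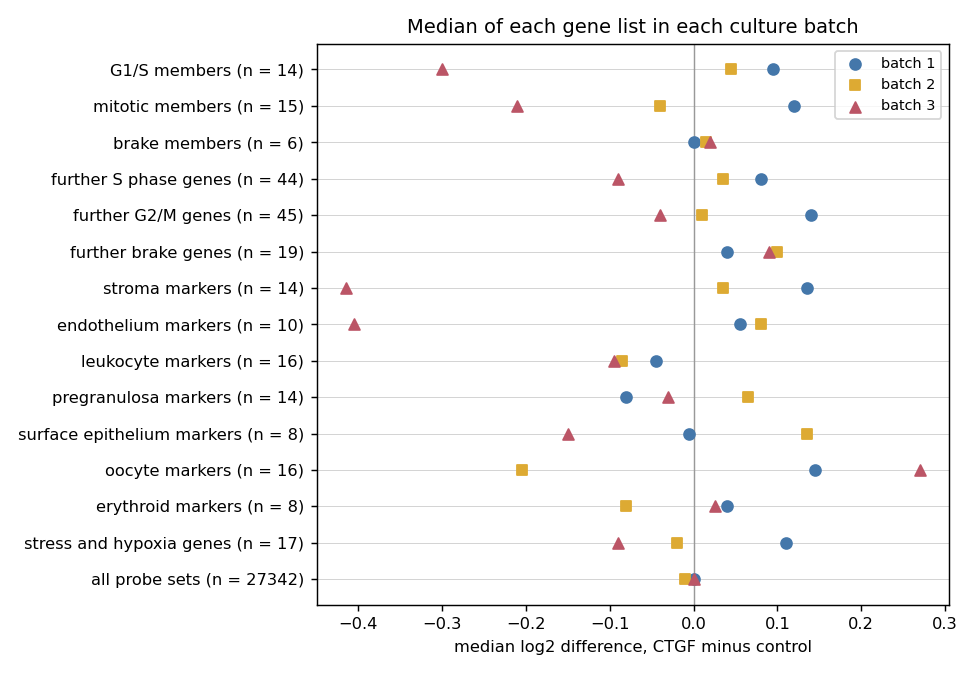
Median log2 difference between the CTGF and control array (horizontal axis) of each gene list (vertical axis, n genes measured) in batch 1 (circles), 2 (squares) and 3 (triangles). In batch 3 the G1/S genes are at -0.30, the mitotic genes at -0.21, the stroma markers at -0.415 and the oocyte markers at 0.27, and all probe sets lie at 0.

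**Figure D4:**
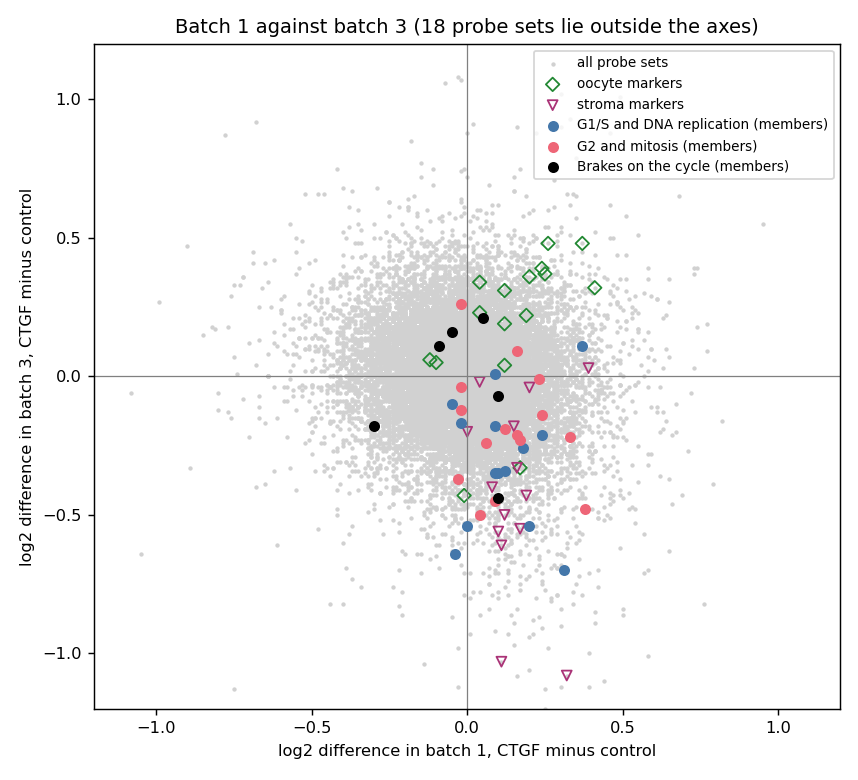
Log2 difference between CTGF and control in batch 3 (vertical axis) against that in batch 1 (horizontal axis) for all probe sets (grey) and for the cell cycle genes by class (filled circles), the stroma markers (triangles) and the oocyte markers (diamonds). Of the 35 cell cycle genes 20 lie to the lower right of 0, with 12 of the 14 stroma markers, against 24.7% of all probe sets. Outside the axes lie 18 probe sets.

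The direction of both class medians turned when batch 3 was left out. The G1/S median over the remaining 2 pairs was 0.085 and the mitotic one 0.05, in place of -0.05 and -0.007, and limma called 5 of the 35 genes at an unadjusted p under 0.05, or 14.3%, where 4.55% of all probe sets were called. These were E2f1, which lay near background, Cdc6, Mcm2, Plk1 and Cdkn1c, at log2 fold changes of 0.29, 0.26, 0.21, 0.34 and -0.245. Their adjusted p = 0.782 in limma, so none passed. Without batch 1 or without batch 2 the G1/S median was -0.13 and -0.103.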

How the data were processed

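Rat Gene 1.0 ST arrays of 6 samples were used, 3 control and 3 CTGF, grouped by their labels. Per the methods, the authors used Partek and a GC-adjusted RMA to give each of 27342 probe sets a log2 signal, and the submitters' processing notes name the same tools. The deposited log2 signals also lack differences between batch means, a step seen in the values and not described in the methods. The labels name the culture date batch, the same as the replicate number, and this pairs the samples.

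Differences were tested by lmFit and eBayes of limma (version 3.58.1, under R 4.3.3; batch as a block, 2 residual degrees of freedom, prior degrees of freedom 4.22) on all probe sets without a filter, with Benjamini-Hochberg adjustment. As samples are pools of a few ovaries, p-values measure the spread of the differences between paired pools, not that between ovaries. Depth does not apply to arrays, and their number limits the precision. Tables were made in Python 3.11.15. Names come from the platform annotation, which gave 1 symbol to 15097 probe sets, of which 15067 were matched to RefSeq (GRCr8). For genes with several promoters the first listed was used. Every gene of the list is named, and the 3 smallest p of each further pathway list. The genes and lists were chosen with earlier results of these data known.

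The settings varied were the batch term (left out), the methods' 2-way test, quantile normalization, centred array medians, filters on dim probe sets, trend and robust options, all probe sets of a gene, narrower classes, means, and each replicate left out.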

Additional observations from a re-analysis of the deposited data

How the results depend on the processing

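Across the 35 genes and 9 further pathway genes no alternative brought a gene past an adjusted p of 0.05, and the count over all probe sets was 0 in each. The number of the 35 at an unadjusted p under 0.05, which was 1, became 2 with no replicate block (Mcm7 and Cdkn1c) and ranged from 0 to 5 with each replicate left out, and was 1 elsewhere. The fit with no replicate block counts degrees of freedom that the paired values lack, and called 4415 probe sets at that p in place of 915. With each replicate left out the log2 fold change ranged from -0.27 to 0.01 for Ccnd1, -0.145 to 0.08 for Ccnd2, -0.015 to 0.24 for Ccne2, -0.045 to 0.115 for Cdk2, -0.095 to 0.015 for Cdk4, -0.245 to 0.26 for Cdc6, -0.17 to 0.21 for Mcm2, -0.17 to 0.05 for Mcm5, -0.11 to 0.11 for Mcm6, -0.14 to 0.09 for Pcna, -0.085 to 0.10 for Ccna2, -0.07 to 0.05 for Ccnb1, -0.035 to 0.135 for Ccnb2, -0.18 to 0.18 for Aurkb, -0.16 to 0.04 for Bub1b, -0.235 to 0.195 for Top2a, -0.03 to 0.12 for Cdc20, -0.20 to 0.155 for Cdc25b, -0.175 to 0.10 for Mad2l1, -0.015 to 0.125 for Kif11, -0.17 to 0.13 for Cdkn1a, -0.015 to 0.09 for Cdkn2a, -0.165 to 0.015 for Cdkn2c and -0.01 to 0.27 for Hells. It ranged from 0.05 to 0.34 for Plk1, 0.015 to 0.29 for E2f1 and -0.115 to 0.11 for Bub1. Of the 44 genes, 18 changed direction without replicate 3, against 5 without replicate 1 and 4 without replicate 2. Ccna2 was at 0.0017 with quantile normalization and at 0.010 with centred medians, where Ccnb1 and Mad2l1 were at 0.0067 each. The median of the 6 restraining genes, -0.008, was 0.005 with centred medians, -0.06 above background alone, -0.031 as a mean, and between -0.025 and 0.0125 with a replicate left out. The other medians by class moved by less than the SD of their 3 batch values. Apart from the removal of a replicate, the causes were not tested.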

Other observations

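Across the 35 cell cycle genes the paired differences of batch 1 and batch 3 correlated at r = -0.176, those of batches 2 and 3 at -0.292 and those of batches 1 and 2 at 0.158. Over all 27342 probe sets the values were -0.132, -0.137 and 0.059, and over the 14481 above background they were -0.186, -0.178 and 0.056. These are descriptions across genes, which are not independent, and all points of a batch share the same 2 pools.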
